A study of Homo sapiens with 6 samples.

Results

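The genes described here are 10 transcription factors of blood stem cells and blood lineages: MYB, GFI1, GFI1B, RUNX1, GATA2, TAL1, LMO2, LYL1, SPI1 and CEBPA. They were found by symbol in the annotation of an Illumina expression array, which gave 13 of the 47322 probes and all 10 genes of the 20046 that carry a name. RNA was measured in KG1a, an established line of acute myeloid leukaemia whose cells are immature and bear CD34. Of 6 arrays, 3 came from control cells and 3 from cells that had received the agent 7l at 2 µM for 24 h. All cells were grown in RPMI 1640 with fetal serum. What 7l is, and which vehicle the control received, the labels do not say. The titles number the arrays 1 to 3 in each group, while the description labels call all control arrays replicate 1 and all 7l arrays replicate 2. Nothing ties the numbers to separate cultures. The p-values below therefore cover the spread among these 6 samples alone, and that spread may be technical. A single cell line stands for the disease here.

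Blood cell identity is held by a small circuit of transcription factors that bind the same enhancers and each other's genes. MYB keeps progenitors dividing and undifferentiated. RUNX1 binds DNA with its partner CBFB and is needed for the first blood stem cells to form. GATA2 sits in a complex with the basic helix-loop-helix protein TAL1 or its relative LYL1, which LMO2 bridges with the help of LDB1. SPI1 (PU.1) and CEBPA drive cells into the myeloid lineages. GFI1 and GFI1B are closely related zinc finger repressors that recruit the histone demethylase LSD1, GFI1 in stem cells and granulocyte precursors and GFI1B in erythroid cells and megakaryocytes.

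The promoters of MYB, GFI1 and GFI1B are shown because MYB and GFI1 were the members that fell with 7l and GFI1B is the paralogue of GFI1 that did not. Each is the 250 bases before the gene's RefSeq start in GRCh38.p14, written in the direction of transcription. MYB lies on the plus strand at chr6:135181058-135181307, GFI1 on the minus strand at chr1:92486926-92487175 and GFI1B on the plus strand at chr9:132945281-132945530. Capitals mark the letters of 8 motifs searched on both strands.
MYB: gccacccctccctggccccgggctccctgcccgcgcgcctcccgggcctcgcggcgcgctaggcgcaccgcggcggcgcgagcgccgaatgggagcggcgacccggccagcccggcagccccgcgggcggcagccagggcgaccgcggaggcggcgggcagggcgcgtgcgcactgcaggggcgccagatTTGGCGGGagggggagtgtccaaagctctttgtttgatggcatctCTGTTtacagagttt
GFI1: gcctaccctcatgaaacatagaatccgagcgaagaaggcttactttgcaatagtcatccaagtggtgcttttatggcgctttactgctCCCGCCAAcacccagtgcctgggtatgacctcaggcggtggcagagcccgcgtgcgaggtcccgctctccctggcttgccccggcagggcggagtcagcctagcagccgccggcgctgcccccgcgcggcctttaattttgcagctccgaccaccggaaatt
GFI1B: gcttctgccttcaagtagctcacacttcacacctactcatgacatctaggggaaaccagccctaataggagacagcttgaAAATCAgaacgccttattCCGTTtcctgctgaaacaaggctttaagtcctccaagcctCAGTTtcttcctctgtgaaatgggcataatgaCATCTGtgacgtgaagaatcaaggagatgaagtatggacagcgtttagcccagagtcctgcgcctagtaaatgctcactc

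The letters TTGGCGGG, a form of the E2F site, stood in the MYB promoter from position -60 to -53 and, on the other strand, in the GFI1 promoter from -162 to -155, counted back from the gene's start. This motif was added after the MYB promoter had been read, so the match in MYB was fixed in advance. It was in 307 of 27305 promoters of the same length (1.12%) and in 2 of the 8 members that have a promoter in the table. Across the array, 164 tested genes had it in their promoter, of which 3 were called lower with 7l (1.83%, against 1.11% of the 9789 tested genes with a promoter in the table) and 1 higher. MYB and GFI1 are themselves among the 3. The median log2 change of the 164 genes was -0.01, beside 0.01 for the 9789.

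The other motifs were the cores of sites known for the members themselves. The MYB core AACNG was in the MYB, GFI1B and LYL1 promoters, and in 70.6% of all promoters. In the MYB promoter it lay on the other strand, from -15 to -11. The GFI1 core AAATCA was in the GFI1B promoter (11.7% of all promoters), the E-box CAGNTG also in that of GFI1B (42.5%), the GATA core AGATAA in that of TAL1 (9.37%) and the CEBP core TTGCNNAA in that of TAL1 (9.13%). The RUNX core TGTGGT (10.9% of all promoters) and the ETS core GGAAGT (19.9%) were in none of the 8. No match says only that these letters are not in this window.

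The values were intensities of 1 and above on a linear scale, with the same median of 4.95 on all arrays. A probe was read as above background on an array if it passed 5.90, the level under which 95% of 585 probes for genes of smell, taste and hair lay on average. The 6 arrays were alike, and none stood apart from its group: across bright probes, which are no independent replicates, Pearson's r was at least 0.993 within a group and at most 0.983 between groups. Markers of the labelled line were present: CD34 measured 2778 to 2855 in control and 2264 to 2573 in treated cells, and 7 of 11 markers with a named probe were above background on all 6 arrays. PROM1, FLT3 and MPO were above it on none, and KIT on 2, both of them treated. Of the markers of mature lineages with a named probe, 1 of 4 for T cells, 1 of 3 for NK cells, 1 of 2 for B cells, 1 of 4 for monocytes, 0 of 5 for granulocytes, 0 of 3 for erythroid cells and 2 of 4 for megakaryocytes were above background on all 6 arrays. These were CD3D, NCAM1 (67.0 to 91.9), CD79A (13.6 to 26.2), CD14 (6.93 to 19.1), ITGA2B and GP1BA. MS4A1 was above background on 5 arrays and LYZ on 4, while CD3E, FCGR1A, CEACAM8, EPB42 and NCR1 were above it on none. The T cell markers had a summed intensity of 3090 to 3161 in control and 1775 to 2106 in treated cells, nearly all of it from CD3D. That gene was called lower, with a log2 change of -0.66 (limma adjusted p = 0.0396). The megakaryocyte markers summed to 456 to 513 in control and 353 to 356 in treated cells. ITGA2B had a log2 change of -0.53 and GP1BA one of -0.0030 (limma adjusted p = 0.995). Whether these levels had a part in the results below was not tested. In bulk RNA, fewer cells of a type and less RNA per cell cannot be told apart.

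Of the 10 factors, MYB and GFI1 fell with 7l and none rose (limma, adjusted p under 0.05 over all genes tested). GFI1 was 1.63-fold and MYB 1.41-fold lower. The other 8 had log2 changes between -0.05 and 0.29 and did not pass the threshold. All 10 genes were among the 12334 tested. The share of those called lower was 1.16% and the share called higher 1.22%, which makes 2.38% called in either direction. At an unadjusted p under 0.05 the same 2 of the 10 passed, both lower, where 20.5% of all genes tested passed that level. The median log2 change of the 10 was 0.10, and it was 0.01 over all genes tested. In 5 of the 10 the groups did not overlap, with treated arrays above control in 3 genes and below in 2, where such separation held for 28.9% of all genes tested (15.1% above and 13.8% below).

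**Figure D1:**
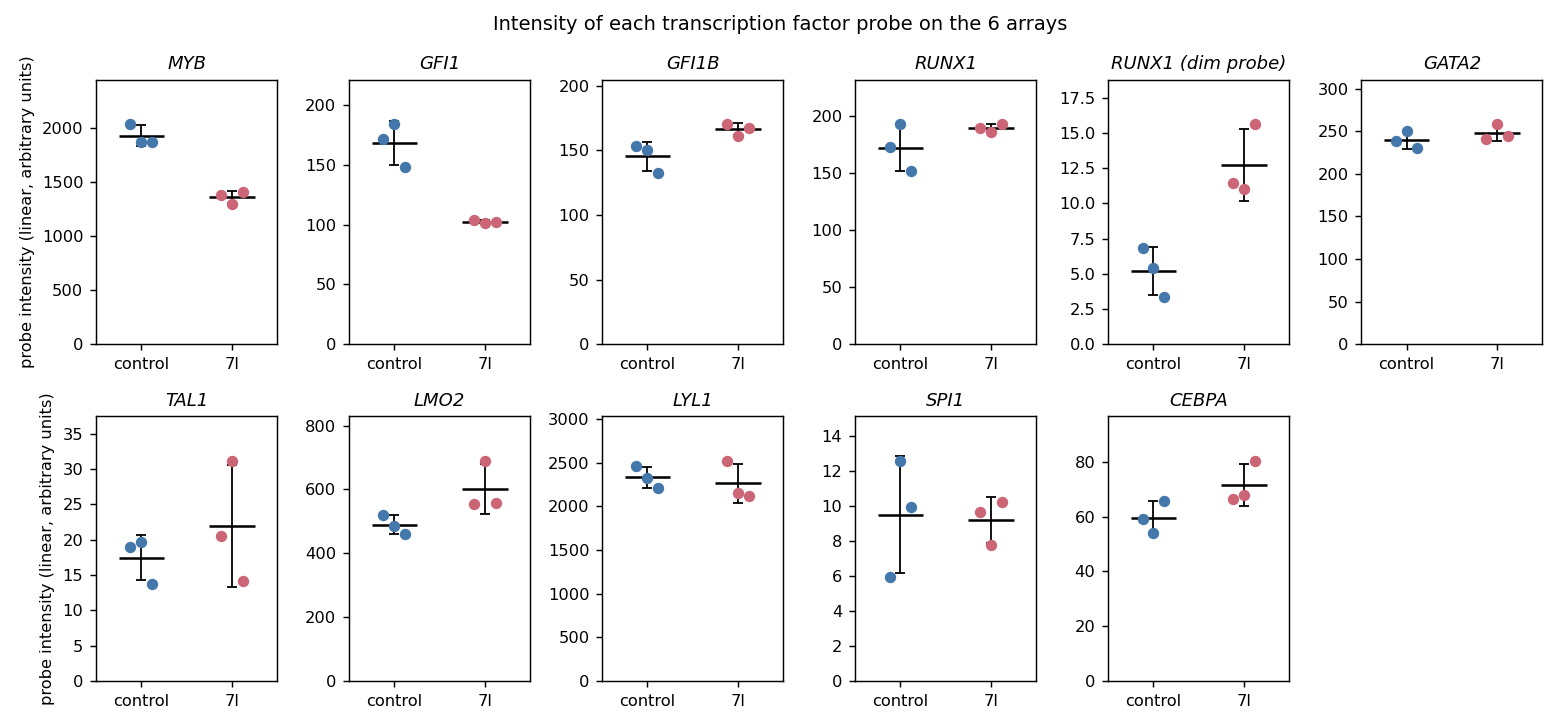
Intensity (linear scale, arbitrary units, each axis from 0) of the 11 probes of the 10 genes that passed the filter on low values, on 3 control arrays (blue) and 3 arrays of 7l-treated cells (red). Points are arrays, thick lines are means and bars are 1 SD; MYB and GFI1 show the treated arrays clear below the controls, while GATA2, LYL1, TAL1 and SPI1 overlap.

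MYB is the progenitor factor that leukaemia cells commonly depend on. Its intensity was 2041, 1876 and 1871 on the control arrays and 1379, 1302 and 1409 on the treated arrays. The groups did not overlap, and the lowest control array stood well above the highest treated array. The mean log2 intensity went from 10.91 ± 0.07 to 10.41 ± 0.06 (SD, n = 3 each). The log2 change was -0.50 ± 0.08 (SE), with a 95% confidence interval from -0.69 to -0.31 (limma adjusted p = 0.0442). On the linear scale the level fell by 29.3%.

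GFI1, the repressor that acts in stem cells and granulocyte precursors, measured 172, 184 and 149 in control and 104, 101 and 103 in treated cells. The treated arrays were nearly equal to each other and all below the controls. Its log2 change was -0.71 ± 0.10 (SE; 95% interval -0.96 to -0.46, limma adjusted p = 0.0392). Among all genes tested, GFI1 ranked 220 and MYB 267 by p-value, so both stood near the edge of the called set. Leaving out any of the 6 arrays, control or treated, ended both calls: the change of MYB then ran from -0.52 to -0.46 (limma adjusted p from 0.119 to 0.151) and that of GFI1 from -0.79 to -0.64 (limma adjusted p from 0.0716 to 0.144). Both calls were also lost when each probe was tested for itself over 23661 probes, of which 0.566% were called (MYB adjusted p = 0.0934 and GFI1 adjusted p = 0.0788 by limma).

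GFI1B, the erythroid and megakaryocyte paralogue, measured 153, 150 and 132 in control and 171, 161 and 167 in treated cells. All treated arrays were above all control arrays, by a small margin. The log2 change was 0.20 ± 0.09 (SE; 95% interval -0.02 to 0.41) and missed the threshold (limma adjusted p = 0.278). The paralogues therefore had changes of opposite sign. Within an array, log2 GFI1 minus log2 GFI1B was lower by 0.91 ± 0.05 (SE) in treated cells, a 1.87-fold shift between the paralogues that showed in 3 of 3 treated against 3 of 3 control arrays. The exact two-sided permutation test over samples gave p = 0.1, the smallest that 3 against 3 arrays allow, and p = 0.2 after adjustment over the 2 paralogue pairs compared. The design cannot reach 0.05 for such a single value.

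RUNX1 had 3 probes. The brightest measured 173, 193 and 151 in control and 189, 186 and 193 in treated cells. The treated arrays lay inside the control range except for 1 at its upper edge, and the log2 change was 0.14 ± 0.11 (SE; 95% interval -0.13 to 0.41, limma adjusted p = 0.509). A second probe, annotated to another RefSeq transcript of the gene, was dim, at 6.80, 5.40 and 3.37 in control and 11.4, 11.0 and 15.6 in treated cells. It was above background on 1 of 3 control arrays and 3 of 3 treated arrays, and the groups did not overlap. Its log2 change was 1.33 ± 0.31 (SE; 95% interval 0.55 to 2.11), which did not pass in the fit of all probes (limma adjusted p = 0.148). With values raised to the background level it was 1.02, and with an offset of 16 added to every value it was 0.44. The other RUNX1 probe was at the floor of 1 on 2 of 3 arrays in each group and was not above background on any array. With the probes of the gene averaged, the log2 change of RUNX1 was 0.33 (limma adjusted p = 0.555).

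**Figure D2:**
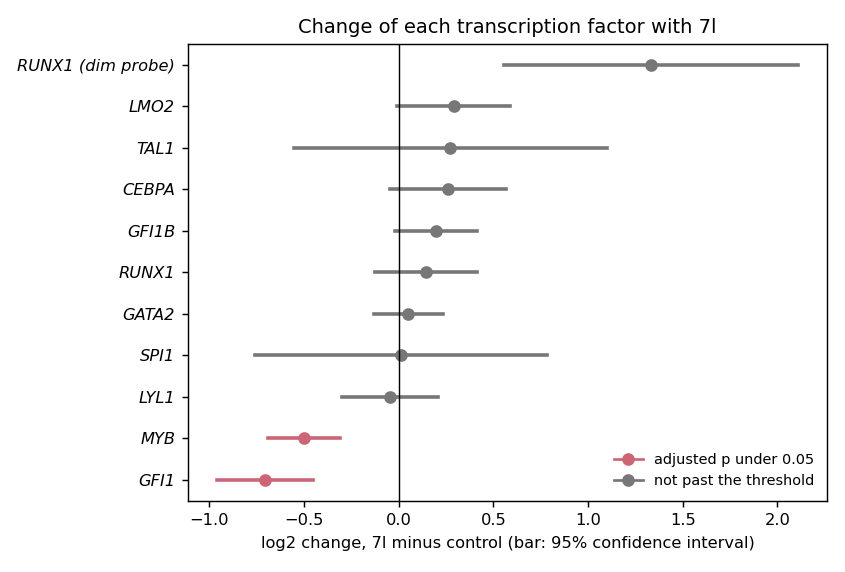
Log2 change (7l minus control) of each transcription factor with its 95% confidence interval from limma, ordered from highest to lowest. Red marks the genes past an adjusted p of 0.05, MYB (-0.50) and GFI1 (-0.71); the dim RUNX1 probe (1.33) comes from the fit of single probes and has a wide interval.

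Of the factors of the stem cell complex, GATA2, which keeps stem cells alive and dividing, had the narrowest interval. It measured 238, 250 and 230 in control and 241, 259 and 244 in treated cells. The groups overlapped, and the log2 change was 0.05 ± 0.07 (SE), with an interval from -0.13 to 0.23 (limma adjusted p = 0.740). A change beyond 1.17-fold upward or to below 0.91 of the control level lies outside that interval.

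LMO2, the bridging protein of the complex, measured 521, 485 and 462 in control and 554, 691 and 556 in treated cells. Every treated array was above every control array, and the treated array numbered 2 stood apart from the others. Its log2 change was 0.29 ± 0.12 (SE; 95% interval -0.01 to 0.59) and missed the threshold (limma adjusted p = 0.256). Without that array the change was 0.19. With a trended and robust prior for the spread, LMO2 passed at an adjusted p of 0.0125 in limma with the same change.

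LYL1, a helix-loop-helix protein that can stand in for TAL1 in stem cells, measured 2457, 2327 and 2207 in control and 2524, 2147 and 2113 in treated cells. The groups overlapped fully, with a log2 change of -0.05 ± 0.10 (SE; 95% interval -0.30 to 0.21, limma adjusted p = 0.840). TAL1, its paralogue, was dim, at 18.9, 19.7 and 13.8 in control and 20.5, 31.2 and 14.2 in treated cells. The treated arrays spread more widely than the 2 group means differed. The log2 change of TAL1 was 0.27 ± 0.33 (SE; 95% interval -0.55 to 1.10, limma adjusted p = 0.694), so anything from a fall by 0.55 to a rise of 1.10 stayed inside its interval. Without the treated array numbered 2 it was -0.02. Log2 TAL1 minus log2 LYL1 differed by 0.32 ± 0.36 (SE) between the groups (exact permutation test, two-sided, p = 0.5, and 0.5 after adjustment over the 2 pairs).

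The myeloid drivers differed in how well they could be read. CEBPA, which commits progenitors to the granulocyte and monocyte path, measured 59.2, 53.9 and 65.8 in control and 66.3, 67.9 and 80.5 in treated cells. The groups did not overlap, but the highest control and the lowest treated array nearly touched. Its log2 change was 0.26 ± 0.12 (SE; 95% interval -0.04 to 0.57) and missed the threshold (limma adjusted p = 0.306). SPI1 was near background, at 5.95, 12.6 and 9.95 in control and 9.66, 7.75 and 10.2 in treated cells. Its groups overlapped, and its log2 change of 0.01 ± 0.30 (SE; 95% interval -0.76 to 0.79, limma adjusted p = 0.989) bounds little. The second SPI1 probe was at the floor on 2 of 3 arrays in each group and above background on none.

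**Figure D3:**
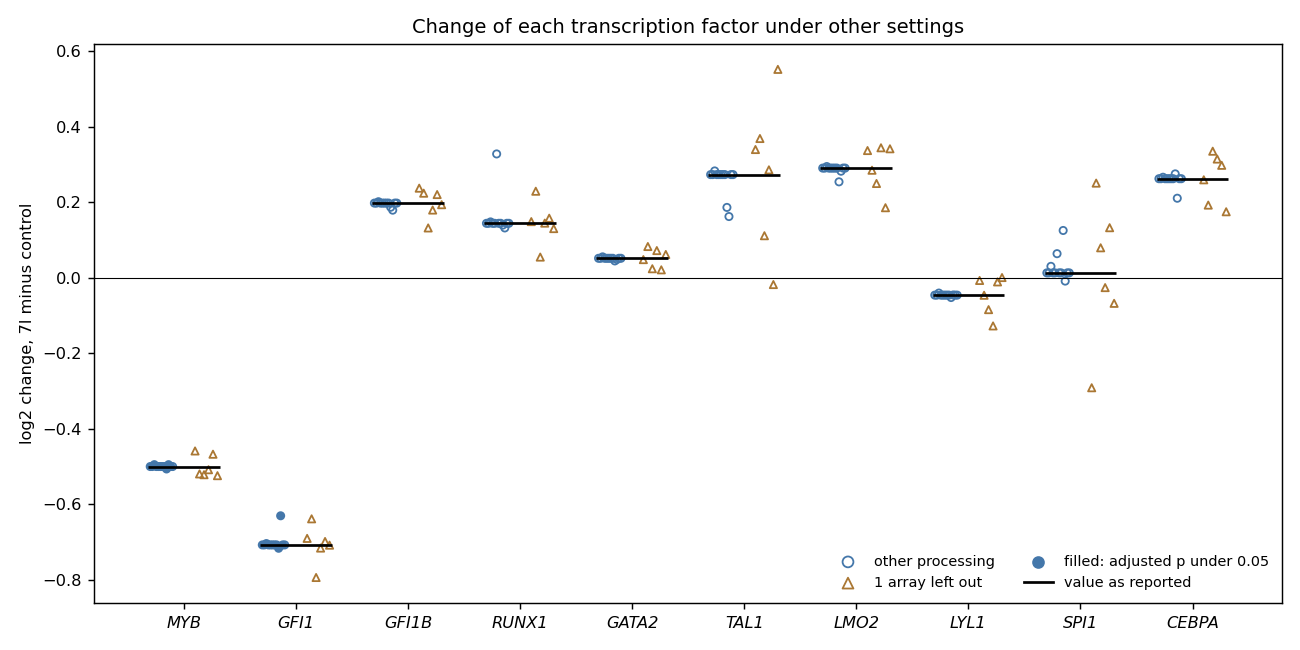
Log2 change (7l minus control) of each of the 10 genes as reported (black line), under other processing (blue circles) and with 1 array left out (brown triangles). Filled symbols have an adjusted p under 0.05; MYB stays between -0.52 and -0.46 and GFI1 between -0.79 and -0.63, both miss the threshold whenever an array is left out, and TAL1, LYL1 and SPI1 cross 0.

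The lists from here on were chosen with earlier results of these data known, so their counts are a description and no independent support. Of 21 genes for partners and cofactors of the 10 factors, 20 were tested, 1 rose and none fell. The shares called over all genes tested were 1.22% higher and 1.16% lower. An unadjusted p under 0.05 was found for 4 of the 20, beside 20.5% of all genes tested. In 7 of the 20 the groups did not overlap, beside 28.9% of all. Some were measured too loosely to bound a change, such as LDB1 with a 95% interval from -3.07 to 2.13, named after its values were seen. The list's median log2 change was 0.06. ID2, which blocks E proteins such as the partners of TAL1 and LYL1, measured 379, 356 and 359 in control and 572, 642 and 610 in treated cells. It was 1.67-fold higher (log2 0.74 ± 0.08 SE, limma adjusted p = 0.0254), with no overlap. ID1, of the same family, measured 0.37 ± 0.14 and did not pass (adjusted p = 0.228), and with its probes averaged it measured 0.050. SSBP2 and SSBP3, which stabilise LDB1, measured -0.35 ± 0.07 (adjusted p = 0.0786) and -0.36 ± 0.11 (adjusted p = 0.163). SSBP2 was called with no filter on low values (limma adjusted p = 0.0475), and with its probes averaged the change was -1.15 (limma adjusted p = 0.191). CBFB, the partner of RUNX1, measured 0.16 ± 0.08 (adjusted p = 0.350) and KDM1A, which encodes LSD1, -0.02 ± 0.09 (adjusted p = 0.917), both named after their values were seen. The call of ID2 was lost without any 1 of the 6 arrays (limma adjusted p from 0.0820 to 0.117, changes from 0.70 to 0.78).

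Of 61 other blood transcription factors in 4 lists, 39 were tested, 1 rose and 2 fell, with a median log2 change of -0.13. Over all genes tested, 1.22% were called higher and 1.16% lower. Among 20 tested factors of stem and progenitor cells, 1 fell and none rose. An unadjusted p under 0.05 was found for 9 of the 20, beside 20.5% of all genes tested. Of the 9 changes, 7 were negative and 2 positive. Over all genes tested, 1199 were lower and 1327 higher at that level. The one that fell was MYCN, a relative of MYC, at 419, 407 and 445 in control and 302, 311 and 318 in treated cells (log2 -0.45 ± 0.07 SE, 1.37-fold lower, limma adjusted p = 0.0491). IKZF1 (Ikaros) at -0.45 ± 0.09 (adjusted p = 0.0792), BCL11A at -0.36 ± 0.08 (adjusted p = 0.0886) and the receptor and factor NOTCH1 at 0.39 ± 0.08 (adjusted p = 0.0731) did not pass. MYCN was not called without any 1 array (limma adjusted p from 0.125 to 0.162, changes from -0.48 to -0.41). The call was also lost under cyclic loess (limma adjusted p = 0.0501) and with the gene's probes averaged (log2 -0.33, limma adjusted p = 0.276).

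Among 10 tested myeloid factors, 1 fell and none rose, beside 1.16% and 1.22% of all genes tested. The median was 0.17. An unadjusted p under 0.05 was found for 4 of the 10, beside 20.5% of all. In 5 of the 10 the groups did not overlap, beside 28.9% of all. NFE2, which also counts in the megakaryocyte list and in that of RUNX1 targets, measured 240, 273 and 254 in control and 156, 162 and 153 in treated cells. It is a factor of platelet formation and was 1.62-fold lower (log2 -0.70 ± 0.08 SE, limma adjusted p = 0.0269), close in size to GFI1. CEBPB, a stress-responsive relative of CEBPA, measured 0.51 ± 0.08 and just missed the threshold (adjusted p = 0.0515). EGR1, an immediate early factor of the monocyte path, measured 0.75 ± 0.16 (adjusted p = 0.0814) and ZBTB16 -0.23 ± 0.07 (adjusted p = 0.188). With an offset of 16 EGR1 passed with a change of 0.44 (limma adjusted p = 0.0483), and ZBTB16 measured -0.47 with its probes averaged. NFE2 was not called without any 1 array (limma adjusted p from 0.0848 to 0.117, changes from -0.74 to -0.65).

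Of 5 tested genes in the erythroid and megakaryocyte list 1 rose and 1 fell, beside 1.22% and 1.16% of all genes tested. The latter was NFE2, and the former MAFG, a small MAF protein that pairs with NFE2 and with NRF2. MAFG measured 36.3, 47.5 and 38.0 in control and 94.1, 96.0 and 96.7 in treated cells, 2.37-fold higher (log2 1.25 ± 0.12 SE, limma adjusted p = 0.0230). So the subunits NFE2 and MAFG had changes of opposite sign. KLF1 at -0.73 ± 0.88, ZFPM1 at -0.13 ± 0.09 and IKZF3 at 0.27 ± 0.34 did not pass. ZFPM1 also counts among the partners. IKZF3 is a lymphoid factor and also counts in the lymphoid list. MAFG kept its call without control array 2 and lost it without each of the other 5 arrays (limma adjusted p from 0.0463 to 0.102, changes from 1.17 to 1.36). With its probes averaged the change was 1.23 and the call was lost as well (limma adjusted p = 0.189). None of 6 tested lymphoid factors passed. An unadjusted p under 0.05 was found for 2, beside 20.5% of all genes tested. They were GATA3 at -0.88 ± 0.14 (adjusted p = 0.0543) and EOMES at -0.96 ± 0.23 (adjusted p = 0.107). LEF1 measured -0.14 ± 0.09.

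**Figure D4:**
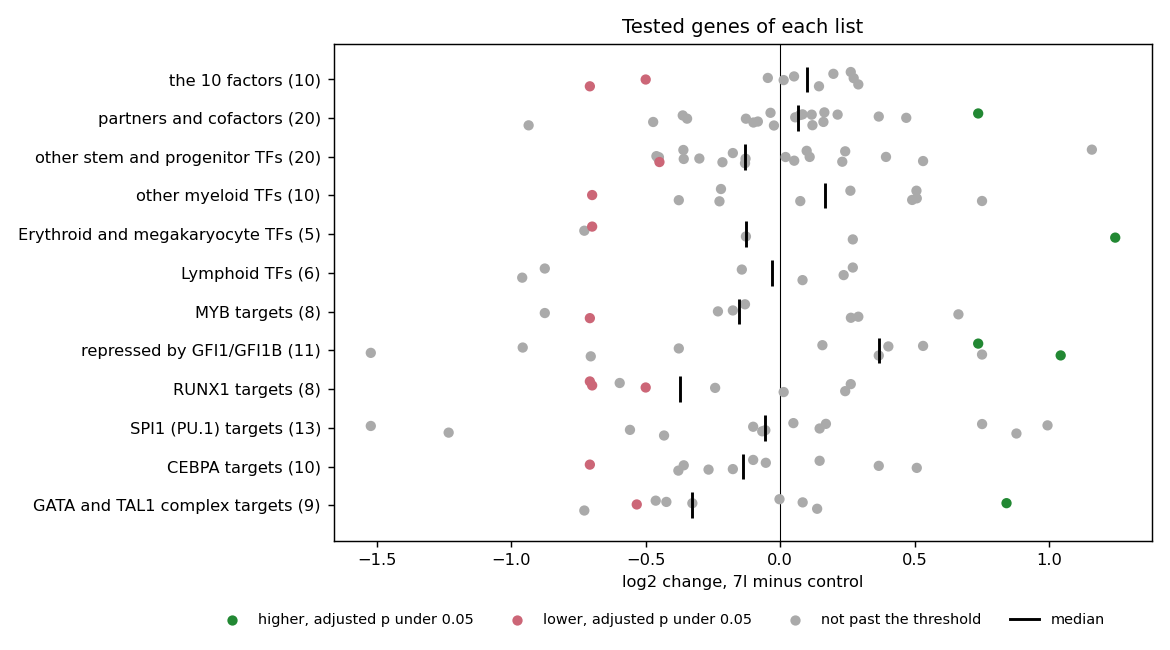
Log2 change (7l minus control) of every tested gene in the 10 factors, their partners, other blood transcription factors (TFs) and genes described as their targets, with the number tested in brackets. Vertical lines are medians; called genes are few in each list, and the 10 factors have a median of 0.10.

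Genes described as targets of the members were read next. Many of them are genes of mature myeloid or erythroid cells that lay under the filter on low values in KG1a, so each count below covers the part that could be tested. Of 13 genes described as MYB targets, 8 were tested, and the 1 that fell was GFI1 itself, with none higher and a median of -0.15. BCL2 at 0.26 ± 0.07 (adjusted p = 0.138, and a change of -0.035 with its probes averaged), CCNB1, cyclin B1, at 0.66 ± 0.12 (adjusted p = 0.0635) and GATA3 did not pass. Of 17 genes described as RUNX1 targets, 8 were tested, 3 fell and none rose, with a median of -0.37. Those 3 were MYB, GFI1 and NFE2, so 2 of them are members and repeat the result above. Over all genes tested, 1.16% were called lower and 1.22% higher. The groups did not overlap in 6 of these 8 genes and in 7 of the 8 MYB targets, beside 28.9% of all. PRKCQ at -0.24 ± 0.08, ANKRD26 at -0.60 ± 0.20 and CEBPA did not pass.

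Of 18 genes described as repressed by GFI1 or GFI1B with LSD1, 11 were tested, 2 rose and none fell, with a median of 0.37. This list, too, was chosen with earlier results of these data known, so its counts are a description. Of the 11 changes, 7 were positive and 4 negative. Across all genes tested, 1.22% were called higher and 1.16% lower. The 2 were ID2 and CDKN1A. CDKN1A, which encodes the cell cycle inhibitor p21, measured 173, 176 and 171 in control and 345, 356 and 369 in treated cells, 2.06-fold higher (log2 1.04 ± 0.06 SE, limma adjusted p = 0.0117). With its probes averaged the change was 0.52 (limma adjusted p = 0.0380). CDKN1A is also a target of many other regulators. It kept its call without treated array 2 and lost it without each of the other 5 arrays (limma adjusted p from 0.0497 to 0.0759). EGR1, LY96 at 0.40 ± 0.10 (adjusted p = 0.123) and ID1 were positive and did not pass, and ITGAM, named after its value was seen, measured -1.52 ± 0.89 (adjusted p = 0.409).

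The targets of the myeloid drivers held few calls. Of 13 tested SPI1 targets none passed in either direction, and the median was -0.06. An unadjusted p under 0.05 was found for 2 of the 13, beside 20.5% of all genes tested. AIF1 at -0.43 ± 0.07 came nearest (limma adjusted p = 0.0565), with CD14 at 0.75 ± 0.29 and CYBB at -1.23 ± 0.50. With the offset of 16 these dim genes measured 0.31 and -0.25. Of 10 tested CEBPA targets GFI1 was the 1 that fell, beside 1.16% of all genes tested, and the median was -0.14. Of those that did not pass, CEBPB at 0.51 ± 0.08 (adjusted p = 0.0515) and ID1 at 0.37 ± 0.14 (adjusted p = 0.228) were positive, and SOX4, which CEBPA represses, measured -0.36 ± 0.13 (adjusted p = 0.223).

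Of 9 tested genes described as targets of the GATA and TAL1 complex, 1 rose and 1 fell, with a median of -0.33. Over all genes tested, 1.22% were called higher and 1.16% lower. TFRC, the transferrin receptor, measured 2464, 2457 and 2651 in control and 4661, 4143 and 4778 in treated cells (1.79-fold higher, log2 0.84 ± 0.09 SE, limma adjusted p = 0.0253). ITGA2B, the platelet integrin subunit, measured 416, 461 and 408 in control and 301, 297 and 289 in treated cells (1.45-fold lower, log2 -0.53 ± 0.08 SE, limma adjusted p = 0.0424). The mast cell genes CPA3 at -0.42 ± 0.07 (adjusted p = 0.0506) and HDC at -0.46 ± 0.10 (adjusted p = 0.0900) had the same sign as ITGA2B and did not pass. Both calls were lost without any 1 array (limma adjusted p from 0.0673 to 0.117 for TFRC and from 0.112 to 0.142 for ITGA2B). In these 9 an unadjusted p under 0.05 was found for 4, beside 20.5% of all genes tested. That level was reached by 5 of 8 tested MYB targets, 5 of 8 RUNX1 targets and 4 of 10 CEBPA targets. It was also reached by 5 of 11 genes described as repressed by GFI1 or GFI1B. The lists share genes, GFI1 among them.

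The genes whose 6 values followed those of the 2 called members most closely were found by Pearson correlation across arrays, as a description. For MYB they were TENT5C (r = 0.998), CASP1 (r = 0.997) and CXXC1 (r = 0.996), and 528 tested genes had an r above 0.9. For GFI1 they were CHCHD7 (r = 0.999), PEX2 (r = 0.998) and DLX1 (r = 0.997), with 493 genes above 0.9. All 6 arrays share the same group difference, which sets much of such a correlation. Of these neighbours TENT5C fell with 7l (log2 -0.68 ± 0.08 SE, limma adjusted p = 0.0269), and the other 5 had log2 changes from -0.45 to -0.14 and did not pass.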

How the data were processed

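For 6 Illumina arrays the authors deposited probe intensity, on a linear scale, in 1 table. Per the labels' protocols, RNA was extracted with Trizol, treated with DNase and made into biotinylated cRNA. No source used here names the background correction, normalization or software. At 97.8% of ranks the arrays held equal sorted values (tolerance 0.0001 of the value), so a shift of all transcripts cannot be seen. Precision is limited by having 3 arrays a group.

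Of 47322 probes, 30113 carried 1 gene symbol in the platform table and 17209 did not. The log2 of each value, with a floor of 1, was used. The brightest probe of each gene was tested if its mean passed the median of all probe means (log2 1.76). This left 12334 genes for limma 3.58.1 in R 4.3.3 (lmFit and eBayes, default prior, 4 residual and 1.24 prior degrees of freedom, two-sided, Benjamini-Hochberg adjustment), with group as the term. Plots came from matplotlib 3.10.9 with pandas 2.3.3 under Python 3.11.15.

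On simulated data with log2 changes of 0.5, 1, 2 and 3 put in, the fit called 10%, 48%, 68% and 78% of the changed genes. Of its 106 calls, 4 were of unchanged genes. A gene that did not pass the threshold may therefore still have changed. Same-numbered arrays did not deviate together (correlations from -0.02 to 0.0043). With 3 arrays a group this cannot settle whether the numbers pair samples, and the labels do not say. Promoters are RefSeq sequences of GRCh38.p14, found for 8 of the 10 members. The members and lists were chosen with earlier results of these data known. All 10 members are named. Of each list, the genes past the threshold and up to 3 with the next smallest p-values are named.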

Additional observations from a re-analysis of the deposited data

How the results depend on the processing

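The number of calls stayed within 1.5 times under quantile normalization, median centring, cyclic loess, averaged probes and array weights, and moved under the other choices. Against 150 higher and 143 lower genes, there were 232 higher with no filter, 270 and 249 with the stricter filter, 90 and 44 with every probe tested for itself, 889 and 813 with a trended and robust prior, 385 and 339 with an offset of 16, and 258 and 245 with values raised to background. With 1 array left out, the higher genes numbered 6 to 15 and the lower ones 0 to 18. With the replicate number as a block, limma called 0 and 0 genes, though 1104 higher and 1003 lower had an unadjusted p under 0.05. The count of lower members was 1 with all probes of a gene averaged (MYB adjusted p = 0.0517), 0 with every probe tested for itself, 0 with the replicate block and 0 to 0 without any 1 array. The count of higher members was 1, LMO2, with the trended and robust prior, under which the list of stem and progenitor factors had 3 higher and 5 lower and that of genes repressed by GFI1 or GFI1B 5 higher. MYB was called in 9 and GFI1 in 10 of the 12 alternatives that kept all arrays, and both kept their sign in all 18. Quantile normalization and median centring were among the 12 and could change little, as the arrays already held nearly equal sorted values. Signs reversed for SPI1 with the offset (-0.0092) and without single arrays (-0.29 to 0.25), for TAL1 (-0.018 to 0.55) and LYL1 (-0.13 to 0.00016) without single arrays, for KLF1 without single arrays (-1.31 to 0.15) and for BCL2 with its probes averaged (-0.035). In each of these the value as reported had not passed the threshold either, and the cause was not tested.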
